A study of Schmidtea mediterranea with 6 samples.

Results

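The lysosomal cathepsin genes described here are 3 of the 30917 gene models in the count data: SMESG000029163.1 and SMESG000029164.1, both described by the study's authors as cathepsin A, and SMESG000048413.1, described as cathepsin B. The genes were taken by identifier, and they were chosen because earlier results of this same comparison had shown them changed. Their difference between the groups is therefore a description, and fold changes, intervals and calls of these genes in the fit across all genes are not a test of it. Gene descriptions were at hand mainly for genes that the study had found changed, and for only part of these. Further cathepsin genes may therefore be present among the other models. Chromosome positions and sequences of the genes were not analysed here, and the descriptions rest on similarity to genes of other species.

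The libraries came from X1 cells of the planarian Schmidtea mediterranea, a flatworm that regenerates from dividing stem cells called neoblasts. X1 is the flow cytometry gate on Hoechst and Calcein staining that holds cycling, irradiation-sensitive cells. The comparison asked how transcript levels in these cells change when Smed-exoc3 is knocked down. This gene encodes a subunit of the exocyst, the complex that tethers secretory vesicles to the plasma membrane before they fuse. All animals belonged to the asexual strain and received injections of double-stranded RNA, which targeted Smed-exoc3 in the exoc3(RNAi) group (3 libraries) and gfp, which the planarian genome does not contain, in the gfp(RNAi) control group (3 libraries). The groups thus differed in the RNA given and not in an allele, and the RNA was given to the whole animal rather than to X1 cells alone. According to the paper, animals of both groups were starved before the first injection and for the rest of the protocol. The X1 cells were taken at its end, when the paper describes head regression and shrinkage in exoc3(RNAi) animals.

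Cathepsins are proteases of the lysosome, the acidic compartment in which cells digest material taken up from outside or delivered by autophagy. Cathepsin A is a serine carboxypeptidase that removes residues from the carboxyl end of peptides, and in mammals it also holds beta-galactosidase and neuraminidase in a stable complex. Cathepsin B is a cysteine protease of the papain family that cuts within proteins and trims dipeptides from their ends. In planarians, cathepsin transcripts are best known from phagocytic cells, including a broad class of non-intestinal cells named for cathepsin expression.

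Each library held between 28897363 and 37525894 reads assigned to genes, and 14700 gene models had enough reads to be tested. The targeted gene, Smed-exoc3 (SMESG000022604.1), was at 70.2, 74.0 and 72.7 CPM (normalised counts scaled to the library total) in gfp(RNAi) replicates 1 to 3 and at 31.9, 31.2 and 42.5 CPM in exoc3(RNAi) replicates 1 to 3. The exoc3(RNAi) libraries thus retained 44.1%, 43.1% and 58.7% of the control mean, and all 3 matched their label. exoc3(RNAi) replicate 3 stood apart from the other libraries of its group. The chi-square statistic of the gene counts per degree of freedom was 7.05 and 7.75 between it and its group's other libraries, against 1.33 to 3.0 for the remaining pairs within a group. The members' results are therefore also given without it, as are the counts of the gene lists.

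All 3 cathepsin genes were higher in exoc3(RNAi) X1 cells, by 1.85-fold to 5.16-fold in the ratio of mean CPM. The largest ratio belonged to the gene with the fewest reads, the cathepsin A gene SMESG000029163.1. The other cathepsin A gene and cathepsin B were each close to doubled. By edgeR's quasi-likelihood fit across all genes, 3 of 3 were called higher at an adjusted threshold of 0.05, beside 25.8% of all genes tested (53% in either direction). Libraries of the groups did not overlap for any of the 3, beside 30.1% of all genes tested that were higher without overlap. The genes were selected on this contrast, so nothing is read from these counts.

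SMESG000029163.1 had few reads in the control libraries. It had 26, 36 and 29 reads in gfp(RNAi) replicates 1 to 3 and 166, 116 and 224 reads in exoc3(RNAi) replicates 1 to 3. These correspond to 0.812, 1.16 and 0.871 CPM in the controls and 4.37, 3.95 and 6.37 CPM after knockdown. Every exoc3(RNAi) library was above every control, with a gap of 2.79 CPM between the lowest exoc3(RNAi) and the highest gfp(RNAi) value. The means were 0.949 ± 0.189 CPM (SD, n = 3) and 4.89 ± 1.29 CPM (SD, n = 3), and the fitted log2 fold change was 2.37 (SE 0.21, 95% interval from the SE 1.96 to 2.79). The 95% intervals of the members' log2 fold changes use the normal distribution and are too narrow for 3 libraries per group.

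The small read numbers set the precision of this gene in the controls. The exact Poisson interval ran from 17 to 38.1 reads in gfp(RNAi) replicate 1, from 25.2 to 49.8 in replicate 2 and from 19.4 to 41.6 in replicate 3, and it covers counting error only. The control libraries varied by 19.9% (coefficient of variation), where counting alone would give 18.2%, so their order cannot be read. In the exoc3(RNAi) libraries the coefficient of variation was 26.4% and the counting share was 7.70%. That wider spread came from replicate 3, which was 6.71-fold over the control mean while replicates 1 and 2 were 4.60-fold and 4.16-fold over it. Without exoc3(RNAi) replicate 3 the log2 fold change of SMESG000029163.1 was 2.14.

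SMESG000029164.1 carried most of the cathepsin A reads. It had 312, 277 and 306 reads in the gfp(RNAi) libraries and 685, 604 and 713 reads in the exoc3(RNAi) libraries. Its level was 9.74, 8.96 and 9.19 CPM in gfp(RNAi) replicates 1 to 3 and 18, 20.6 and 20.3 CPM in exoc3(RNAi) replicates 1 to 3. The groups lay far apart relative to their own spread, with a gap of 8.29 CPM. Mean levels were 9.30 ± 0.402 CPM and 19.6 ± 1.38 CPM (SD, n = 3 each), a ratio of 2.11, and the log2 fold change was 1.07 (SE 0.07, 95% interval 0.93 to 1.22). Here exoc3(RNAi) replicate 1 was the lowest and replicate 2 the highest of its group, at 1.94-fold and 2.21-fold over the control mean. Replicate 3, at 2.18-fold, did not stand out, and the log2 fold change without it was 1.04.

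SMESG000048413.1, the cathepsin B gene, had the most reads of the members, with 464, 420 and 409 in the gfp(RNAi) libraries and 922, 686 and 953 in the exoc3(RNAi) libraries. In CPM it was at 14.5, 13.6 and 12.3 in gfp(RNAi) replicates 1 to 3 and at 24.3, 23.4 and 27.1 in exoc3(RNAi) replicates 1 to 3. The lowest exoc3(RNAi) library was 8.87 CPM above the highest control. Mean levels were 13.5 ± 1.10 CPM and 24.9 ± 1.94 CPM (SD, n = 3 each), a ratio of 1.85, and the log2 fold change was 0.89 (SE 0.08, 95% interval 0.74 to 1.04). As for SMESG000029163.1, replicate 3 was the highest exoc3(RNAi) library, at 2.01-fold over the control mean against 1.8-fold and 1.74-fold in replicates 1 and 2. The log2 fold change without it was 0.83.

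**Figure D1:**
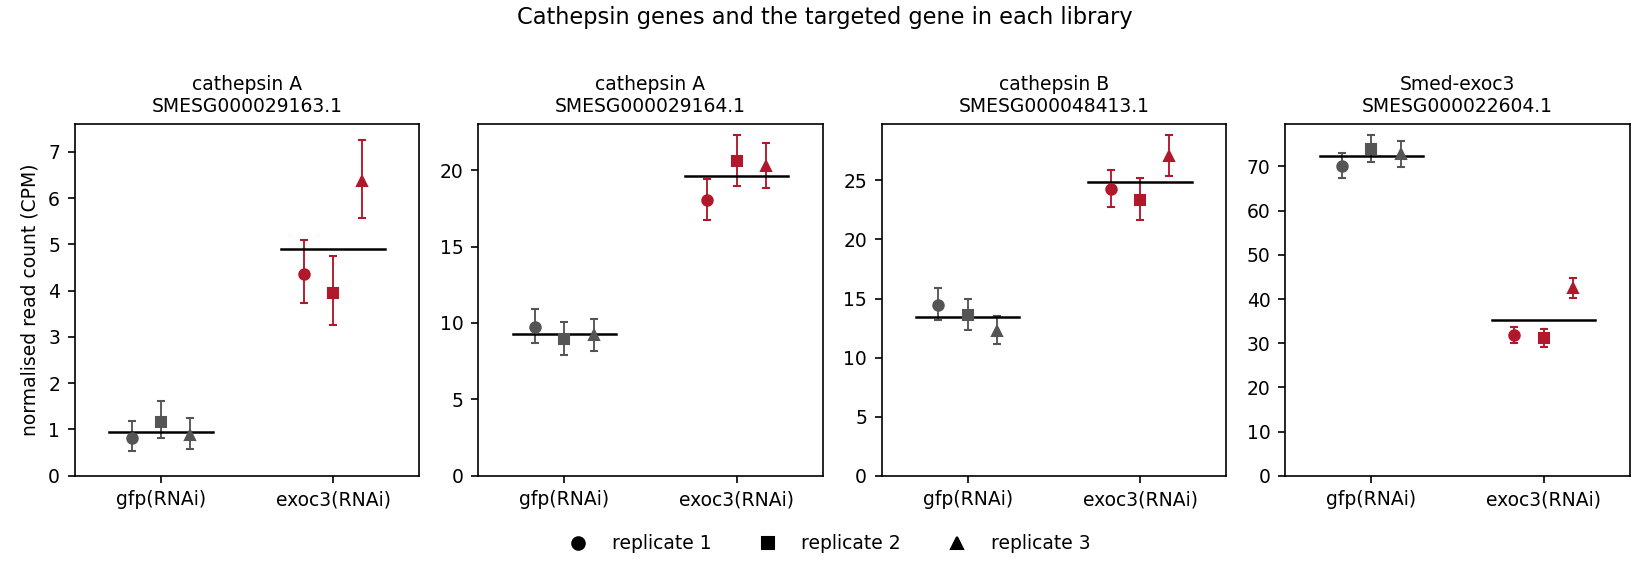
Normalised read count (CPM, linear axes that start at 0) of the 3 cathepsin genes and of Smed-exoc3 in each library. Symbols mark replicates 1 to 3, vertical bars are exact 95% Poisson intervals of the reads (counting error only), and horizontal lines are group means. The exoc3(RNAi) libraries lie above all gfp(RNAi) libraries for each cathepsin gene and below them for Smed-exoc3, and replicate 3 is the highest exoc3(RNAi) library for SMESG000029163.1, SMESG000048413.1 and Smed-exoc3.

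Replicate 3 was at once the exoc3(RNAi) library with the most Smed-exoc3 transcript left and the one with the highest summed cathepsin level. The 3 cathepsin genes together took 46.7, 47.9 and 53.7 CPM in exoc3(RNAi) replicates 1 to 3 and 25, 23.7 and 22.4 CPM in gfp(RNAi) replicates 1 to 3. Replicate 3 was the highest exoc3(RNAi) library for 2 of the 3 members, for 9 of the 11 other lysosomal genes described below, for 48.4% of all genes called higher and for 35.7% of all genes tested. The 3 members were also higher in the libraries that remained without it.

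The cathepsin A genes carry consecutive identifiers, and how similar their sequences are was not examined. The authors counted uniquely aligned reads only, so reads that match both genes equally would have been lost from both, and the split between the genes is uncertain to that extent. Summed over both genes, cathepsin A was at 10.6, 10.1 and 10.1 CPM in the gfp(RNAi) libraries and at 22.4, 24.5 and 26.6 CPM in the exoc3(RNAi) libraries. The sum does not depend on how the counted reads were divided between the genes, but it too would lack reads that match both equally. Its means were 10.2 ± 0.267 and 24.5 ± 2.11 CPM (SD, n = 3 each), and its log2 fold change was 1.26 (SE 0.07), or 1.19 without exoc3(RNAi) replicate 3.

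The balance between the cathepsin A genes differed between the groups. SMESG000029163.1 held 7.69%, 11.5% and 8.66% of the cathepsin A reads in gfp(RNAi) replicates 1 to 3. The exact Clopper-Pearson 95% intervals were 5.09% to 11.1%, 8.19% to 15.6% and 5.87% to 12.2%. In exoc3(RNAi) replicates 1 to 3 it held 19.5% (16.9% to 22.3%), 16.1% (13.5% to 19.0%) and 23.9% (21.2% to 26.8%). All 3 exoc3(RNAi) shares exceeded all 3 control shares, although the intervals of gfp(RNAi) replicate 2 and exoc3(RNAi) replicate 2 overlapped. The mean share was 9.28% ± 1.98 in the controls and 19.8% ± 3.91 after knockdown (SD, n = 3 each), a difference of 10.6 percentage points that was 8.53 points without exoc3(RNAi) replicate 3. These shares derive from the same reads as the fold changes above and are no separate evidence.

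Cathepsin B had the smaller fold change, so its level relative to cathepsin A was lower after knockdown. Its CPM divided by the summed cathepsin A CPM was 1.37, 1.34 and 1.22 in the gfp(RNAi) libraries and 1.08, 0.953 and 1.02 in the exoc3(RNAi) libraries. The mean ratio was 1.31 ± 0.0803 in the controls and 1.02 ± 0.0653 after knockdown (SD, n = 3 each), and the groups did not overlap. The exoc3(RNAi) mean was 1.02 without replicate 3 too. Gene lengths were not available here, so the ratio shows a shift between groups and not which enzyme had more transcripts.

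**Figure D2:**
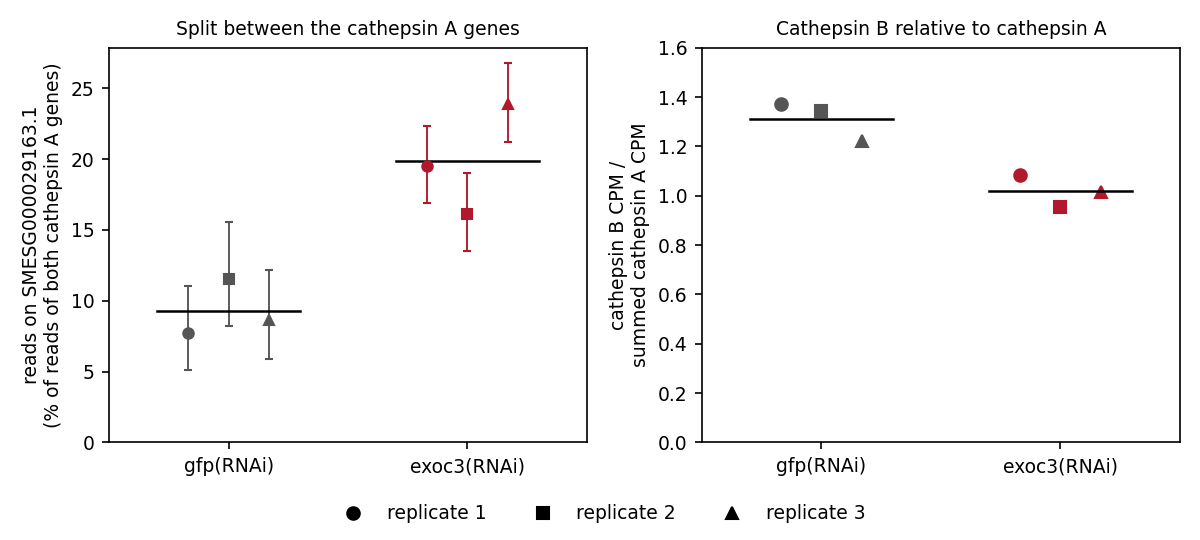
Left, reads on SMESG000029163.1 as a percentage of the reads of both cathepsin A genes in each library, with exact 95% Clopper-Pearson intervals. Right, cathepsin B CPM divided by the summed CPM of both cathepsin A genes. Symbols mark replicates 1 to 3 and horizontal lines are group means. The share is 7.69% to 11.5% in gfp(RNAi) and 16.1% to 23.9% in exoc3(RNAi), and the ratio falls from 1.22 to 1.37 in gfp(RNAi) to 0.953 to 1.08 in exoc3(RNAi).

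The members' profiles over the 6 libraries were compared as log2(CPM + 0.5) relative to each gene's control mean. SMESG000029164.1 and the cathepsin B gene lay close together, with a root mean square difference of 0.15. SMESG000029163.1 was 0.64 from the other cathepsin A gene and 0.74 from cathepsin B, so the cathepsin A gene SMESG000029164.1 lay nearer to cathepsin B than to its own namesake. The added 0.5 CPM is large beside the control level of SMESG000029163.1 and shrinks its profile, whose mean in exoc3(RNAi) was 1.88 on this scale against a fitted log2 fold change of 2.37. With 0.05 CPM added the distances of SMESG000029163.1 were 0.91 and 1.02, and without exoc3(RNAi) replicate 3 they were 0.46 and 0.58, while SMESG000029164.1 and cathepsin B were 0.16 apart in both cases. With candidates limited to tested genes averaging 10 CPM or more, the profile nearest to SMESG000029163.1 was that of SMESG000009888.1 (difference 0.18), followed by SMESG000055421.1 (0.24) and SMESG000009912.1 (0.24), a gene with an alpha galactosidase A domain. Nearest to SMESG000029164.1 were SMESG000070072.1 (0.066), SMESG000065612.1 (0.077), described as ETS proto-oncogene 1, a transcription factor, and SMESG000024772.1 (0.088). Nearest to cathepsin B were SMESG000050229.1 (0.044), described as PLAC8-like 1, SMESG000037675.1 (0.080) and SMESG000004195.1 (0.083). Some of these genes, such as SMESG000009888.1 at 4.36 CPM in gfp(RNAi) and 17 CPM in exoc3(RNAi), reached the limit of 10 CPM only through the group where they were high, and those named for SMESG000029163.1 were matched to its shrunken profile. The likeness is dominated by the difference between groups and describes these libraries only.

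The cathepsins were set beside other lysosomal genes. The authors' gene descriptions used here cover part of the genes that the study had already found changed. That these genes were called was thus largely fixed beforehand, and of all genes called in either direction 51.2% were lower. The counts and medians that follow describe the listed genes only and are not independent evidence of a direction or size. Some of the listed genes were placed here by a domain or family label alone. Of 11 further lysosomal enzymes and cofactors, 11 were called higher (25.8% of all genes tested). Their median log2 fold change was 2.04, against 0.02 for all genes tested, which include 6916 genes not called. Of these, 10 had a larger log2 fold change than cathepsin B, beside 629 of all 14700 genes tested. Without exoc3(RNAi) replicate 3 the count called higher was again 11, the median was 1.76, and 9 exceeded cathepsin B. Among the listed lysosomal genes only, SMESG000048413.1 therefore sat near the lower end and SMESG000029164.1 only a little above it. SMESG000029163.1 was among the most increased. Lysosomal genes with little or no change could hardly enter the list, so the ranks do not hold for lysosomal genes at large.

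SMESG000049722.1, which the descriptions place in the papain family of cysteine proteases without naming it, is the enzyme closest in class to cathepsin B. It was at 13.9, 12.8 and 12.9 CPM in the gfp(RNAi) libraries and at 43.6, 42.8 and 44.4 CPM in the exoc3(RNAi) libraries. Its log2 fold change of 1.72 (SE 0.05) was larger than that of cathepsin B, and its exoc3(RNAi) libraries hardly differed from each other. Saposins are small proteins that present sphingolipids to lysosomal hydrolases. The log2 fold change was 2.72 (SE 0.07) for SMESG000019975.1, described as a putative saposin, and 1.36 (SE 0.12) for SMESG000019976.1, described as prosaposin. For SMESG000019977.1 and SMESG000019986.1, which are labelled only as saposin-like, it was 2.52 (SE 0.09) and 2.16 (SE 0.17). The models SMESG000019975.1, SMESG000019976.1 and SMESG000019977.1 carry consecutive identifiers, and how similar their sequences are was not examined. The list counts take each model as a separate gene. The progranulin homolog SMESG000002628.1, whose mammalian counterpart is delivered to lysosomes and cut by cathepsins there, was at 8.81 ± 1.45 CPM in controls and 42.4 ± 2.18 CPM after knockdown (log2 fold change 2.27, SE 0.09). The remaining genes are named for enzymes and carriers that handle lipids, sugars or nucleic acids in the lysosomes of other animals. SMESG000023323.1, an NPC2 cholesterol carrier, differed by 2.04 (SE 0.24), the 1-O-acylceramide synthase SMESG000010284.1 by 2.27 (SE 0.18), the alpha galactosidase A domain gene SMESG000009912.1 by 1.70 (SE 0.10), the group XV phospholipase A2 SMESG000037748.1 by 1.00 (SE 0.13) and phospholipase D3 SMESG000003419.1 by 0.53 (SE 0.06), all on the log2 scale. Control reads were few for SMESG000023323.1 (40, 48 and 26 in gfp(RNAi) replicates 1 to 3) and for SMESG000010284.1 (28, 32 and 23). Without exoc3(RNAi) replicate 3 their log2 fold changes were 1.76 and 2.14.

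Genes that regulate lysosomes or cathepsins were split in direction. Of 6 such genes, 2 were called higher and 4 lower (27.1% of all genes tested were called lower), with a median log2 fold change of -0.43, and the counts were the same without exoc3(RNAi) replicate 3. Cystatin B (SMESG000034246.1), an inhibitor of papain-family cathepsins, was at 28.5, 30.8 and 31.6 CPM in the gfp(RNAi) libraries and at 44.2, 42.1 and 42.4 CPM in the exoc3(RNAi) libraries, a log2 fold change of 0.50 (SE 0.05). The inhibitor was thus higher alongside the protease it binds in other animals, by a smaller factor than cathepsin B at 0.89. The mucolipin ortholog SMESG000015162.1, a cation channel of the lysosomal membrane, had a log2 fold change of 1.17 (SE 0.11).

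The transcription factor EB gene SMESG000077129.1 was lower. In mammals this factor activates lysosomal genes, cathepsins among them. It was at 63.2, 65.4 and 62.7 CPM in the gfp(RNAi) libraries and at 48.0, 47.5 and 43.4 CPM in the exoc3(RNAi) libraries, a log2 fold change of -0.46 (SE 0.05). The kinase MTOR (SMESG000025384.1) and its partner RPTOR (SMESG000039024.1), which in mammals hold this factor out of the nucleus, were lower too, with log2 fold changes of -0.64 (SE 0.04) and -0.44 (SE 0.04). Sortilin 1 (SMESG000061919.1), a receptor that carries proteins from the Golgi towards lysosomes in mammals, had a log2 fold change of -0.41 (SE 0.04). Transcript levels do not show the location or activity of these proteins.

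**Figure D3:**
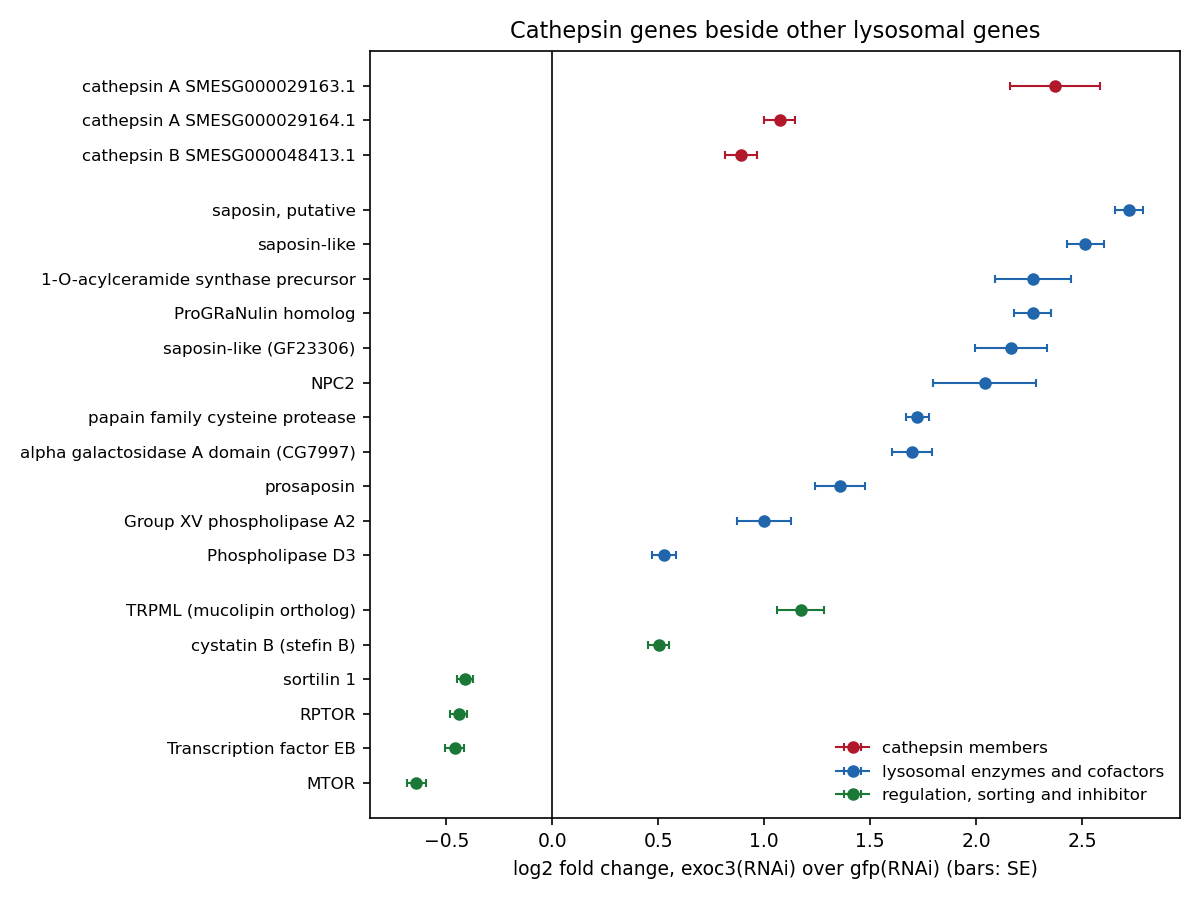
Log2 fold change of exoc3(RNAi) over gfp(RNAi) from the edgeR fit, with bars of 1 SE, for the 3 cathepsin genes, 11 other lysosomal enzymes and cofactors and 6 genes of lysosome regulation, sorting and cathepsin inhibition. The cathepsin genes and the 11 enzymes and cofactors lie to the right of 0, while 4 of the 6 regulatory genes lie to its left.

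Peptidases of families not known chiefly from the lysosome were also among the described, already changed genes. Of 24 such genes from 5 families, 7 were called higher and 17 lower, with a median log2 fold change of -0.62, beside 25.8% higher and 27.1% lower of all genes tested. Of all genes called in either direction, 51.2% were lower, which is the closer comparison for genes taken as already changed. Leaving out exoc3(RNAi) replicate 3 changed none of the counts of the 24 genes. Calpains, the cytosolic cysteine proteases, were lower in 5 of 5 cases, from -1.24 for SMESG000062902.1 to -0.18 for SMESG000039299.1. Aminopeptidases were higher in 2 and lower in 6 cases, between -1.64 for aminopeptidase N (SMESG000022279.1) and 0.60 for SMESG000037599.1. Zinc carboxypeptidases ran from -1.06 for carboxypeptidase N (SMESG000062760.1) to 1.61 for SMESG000056472.1, and trypsin-like serine proteases from -0.96 for SMESG000072099.1 to 1.25 for a gene described as plasminogen (SMESG000025209.1). Astacin metalloproteases ran from -0.91 for SMESG000015174.1 to 1.87 for SMESG000074510.1. A log2 fold change above that of cathepsin B was found for 4 of the 24, beside 629 of all 14700 genes tested. The 4 were the highest zinc carboxypeptidase, trypsin-like serine protease and astacin metalloprotease, and SMESG000048042.1. This last gene, a zinc carboxypeptidase, was at 1.17, and at 0.87 without exoc3(RNAi) replicate 3.

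In a sorted pool of cells, more cells of a cathepsin-rich type and more cathepsin transcript per cell cannot be told apart. Marker genes of other cell types were read in the same libraries, where 25.8% of all genes tested were called higher and 27.1% lower. These markers too were taken from the described genes. The closer comparison is therefore with all genes called in either direction, of which 51.2% were lower. Of 4 neoblast markers, 1 was called higher and 3 lower, and their summed level was 10252 to 10453 CPM in gfp(RNAi) and 7923 to 8676 CPM in exoc3(RNAi). Epidermal progenitor markers were lower in 5 of 5 cases, with sums of 1235 to 1251 and 590 to 592 CPM, though prog-1 was not called with robust dispersions. Muscle markers were higher in 1 and lower in 4 of 5 cases, and neuron markers were higher in 2 and lower in 2 of 4 cases. The neuron marker coe lost its call without exoc3(RNAi) replicate 1 or gfp(RNAi) replicate 2, with scaling by library size alone and under a filter of 10 CPM, and prohormone convertase 2 without exoc3(RNAi) replicate 1. Both genes of the intestinal list, the gata456 genes, were lower, with sums of 10.2 to 12.8 CPM and 6.02 to 7.24 CPM. The counts of these lists were the same without exoc3(RNAi) replicate 3. None of these markers was at 0 in all libraries. Markers of the cathepsin-expressing phagocytic class other than cathepsins were not among the descriptions at hand, which cover only part of the study's changed genes. The part of any of these cell types in the result was not tested.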

How the data were processed

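RNA from sorted X1 cells of 3 gfp(RNAi) and 3 exoc3(RNAi) samples, described by the study as biological replicates, was sequenced from stranded mRNA libraries. According to the study's methods and processing notes, the authors used bcl2fastq 1.8.4, aligned reads to the planarian genome with STAR 2.7.2b, and counted uniquely aligned reads per gene with featureCounts 1.6.5. They deposited whole-number counts for 30917 gene models per library. Here, genes were kept by edgeR's filterByExpr (minimum count 10), scaled by TMM and tested with edgeR 4.0.16's quasi-likelihood fit (limma 3.58.1, R 4.3.3), with Benjamini-Hochberg adjustment over 14700 genes. CPM are TMM-scaled. DESeq2 1.42.0, library size alone, other filters, robust dispersions, a replicate block and leaving out each library were tried. The edgeR step was tested on simulated counts in which only a small part of the genes changed. That setting differs from these libraries, where 53% of the genes tested were called.

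The members and gene lists were chosen with earlier results of these data known. Gene descriptions came from the part of the study's supplementary table of changed genes that was at hand, which names 1528 of the 2057 identifiers read here. Any lysosomal genes or cell type markers in the rest of that table were not seen. Named genes were the members, Smed-exoc3, all genes of both lysosomal lists, the most increased and most decreased gene of each peptidase list and the 3 genes nearest each member in profile. SMESG000048042.1 was named after its value was seen. The replicate numbers were not taken as pairs, since same-numbered libraries did not deviate together (correlations -0.013, 0.018 and -0.022).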

Additional observations from a re-analysis of the deposited data

How the results depend on the processing

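The members were higher under every alternative in which they were tested, which is a description since they were chosen on this contrast. The log2 fold change ranged from 2.14 to 2.54 for SMESG000029163.1, from 1.04 to 1.13 for SMESG000029164.1, from 0.83 to 0.95 for SMESG000048413.1 and from 1.19 to 1.32 for summed cathepsin A, and leaving out single libraries moved the share difference between 8.53 and 12.4 points. SMESG000029163.1 could not be tested under the filter of 10 CPM. With replicate number as a block, 7642 genes were called, against 7784 without it, and the log2 fold changes were 2.36, 1.07 and 0.89, and 1.26 for the sum, so the block changed no call of a member. Scaling by library size alone called 4643 genes higher and 3463 lower (42.7% lower, against 51.2% with TMM) and moved the median of all genes from 0.02 to 0.07 on the log2 scale. DESeq2 called 6371 genes. The lysosomal list kept 11 of 11 genes higher in all settings, chosen after seeing the data, except the 10 CPM filter, where 8 of 8 tested were higher. SMESG000029163.1 rests on 26 to 36 reads per control library, and exoc3(RNAi) replicate 3 moved its log2 fold change from 2.14 to 2.37.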
